A study of Rattus norvegicus with 12 samples.

Results

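The genes of transforming growth factor beta (TGF-beta), activin and bone morphogenetic protein (BMP) signalling were followed in the cerebral cortex of rats with and without an embolic stroke. Members were chosen by symbol: the TGF-beta ligands and receptors (Tgfb, Tgfbr), the inhibin and activin subunits (Inha, Inhb), the BMPs and growth differentiation factors (Bmp, Gdf), their receptors (Bmpr, Acvr), the SMADs, the Id genes, and the inhibitors Fst, Fstl3, Nog, Chrd and Grem1. This gave 62 of the 17268 genes in the count table, and 5 of the 62 are not ligands, receptors or effectors of the pathway in the strict sense but carry a matching symbol (Bmp1, Bmp2k, Tgfb1i1, Tgfbi and Tgfbrap1).

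Each of the 12 libraries came from the cortex of 1 adult male Sprague Dawley rat, with 3 rats in each of 4 groups. Sham rats had the carotid artery surgery but no clot. In the Model group a clot made from donor rat blood was injected at the origin of the middle cerebral artery, and no treatment followed. The rt-PA group had the same clot and was given the clot-dissolving drug rt-PA (recombinant tissue plasminogen activator) into the tail vein at 6 h. The rt-PA+Acu group had the clot, acupuncture at the points Shuigou (GV26) and Neiguan (PC6) at 2 h, and rt-PA at 6 h. There was no group with acupuncture alone, so rt-PA+Acu was set against rt-PA. The time at which the cortex was taken is not given in the sources used here, nor which part of it was sampled relative to the infarct. In bulk tissue, fewer cells of a type and less RNA per cell cannot be told apart.

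TGF-beta family ligands are secreted proteins that bind pairs of type I and type II receptor kinases. TGF-betas and activins signal mainly through SMAD2 and SMAD3, and BMPs through SMAD1, SMAD5 and SMAD9. Both branches share SMAD4, and SMAD6 and SMAD7 hold them back. Outside the cell, TGF-beta is kept latent in the matrix, follistatins bind activins, and noggin, chordin and gremlins bind BMPs. In brain the family is known for its part in the glial response to injury, in microglial identity and in the stability of vessels.

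Totals ran from 11678450 to 13616935 counts per library, so that 3 counts stood for 0.208 to 0.262 counts per 1000000 (CPM). CPM here are counts scaled by library size with edgeR's TMM factors, and they compare 1 gene between libraries, not genes with each other. Neuronal and astrocytic markers were high in all 12 libraries (summed levels of 6 neuronal markers 3490 to 6110 CPM), as the labelled tissue has them. Of 5 choroid plexus markers, Ttr and Otx2 were at or near 0 in all libraries, but Kl (klotho) was 19.8-fold higher in Model than in Sham (edgeR adjusted p = 9.81e-05), and the summed list stood at 0.873 to 1.15 CPM in Sham, 8.18 to 18.8 in Model, 3.67 to 6.7 in rt-PA and 0.784 to 1.01 in rt-PA+Acu. Most of that sum in Model and rt-PA was Kl (8.47, 16.2 and 7.85 CPM in Model), and Folr1 had 0 counts in both groups. The part of choroid plexus RNA in the results was not tested. In a group of 3 libraries 1 always lies farthest from the other 2, and no limit was set for standing apart. In Sham it was replicate 1, with a chi-square of 11.4 and 13 per gene, against 8.86 between the other 2. Model replicate 3 differed from the other Model libraries by a chi-square of 36.2 and 20.7 per gene, against 12.8 between those 2. For rt-PA replicate 2 the values were 35.6 and 25.7, against 17.1, and for rt-PA+Acu replicate 3 they were 52.2 and 36.8, against 20.3.

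Of the 62 members, 48 had enough counts to be tested in all 4 comparisons and 3 (Bmp5, Bmp15 and Gdf15) in some. The other 11 (Bmp8a, Bmp8b, Bmp10, Gdf2, Gdf3, Gdf5, Gdf6, Gdf7, Gdf9, Inhbc and Inhbe) never passed the filter, with at most 13 counts in any library. Bmp8a and Bmp8b are related genes, and the assignment of reads between them was not checked. A gene is called changed at an adjusted p under 0.05 in edgeR's quasi-likelihood test, adjusted over all genes tested, and a differentially expressed gene (DEG) when it also differed by more than 2-fold. By these rules 36 members changed in at least 1 comparison and 24 were DEGs in at least 1. The same counts were not made over all genes. In Model vs. Sham alone 54% of all genes changed and 21.5% were DEGs, so these counts are not read as a trait of the family.

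Promoter sequences are printed for 6 of the 12 members that rose with stroke and were lower with added acupuncture, as the values further on show. They are the 3 TGF-beta ligands, the activin subunit Inhba, the matrix gene Tgfbi and the BMP inhibitor Grem1. They were picked after their values were seen and do not stand for all 12. Each is the 150 bases before the start of the gene in RefSeq's rat assembly GRCr8, read 5′ to 3′ on the gene's strand. The counts were made on another build, mRatBN7.2. Capitals mark GGCGCC, a GC-rich element bound by BMP-type SMADs, and CAGAC on either strand (GTCTG on the other), the SMAD-binding element. GGCGCC reads the same on both strands.
Inhba: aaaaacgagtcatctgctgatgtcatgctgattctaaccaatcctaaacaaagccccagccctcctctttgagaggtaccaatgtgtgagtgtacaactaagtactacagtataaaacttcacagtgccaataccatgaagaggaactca
Tgfb1: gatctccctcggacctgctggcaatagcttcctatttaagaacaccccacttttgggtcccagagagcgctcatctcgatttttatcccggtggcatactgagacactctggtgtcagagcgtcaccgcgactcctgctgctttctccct
Tgfb2: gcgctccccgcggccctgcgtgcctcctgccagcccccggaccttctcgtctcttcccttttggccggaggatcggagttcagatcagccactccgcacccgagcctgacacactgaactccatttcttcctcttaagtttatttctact
Tgfb3: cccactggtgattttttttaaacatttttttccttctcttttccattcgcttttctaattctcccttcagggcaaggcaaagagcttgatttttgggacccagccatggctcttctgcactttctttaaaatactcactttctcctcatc
Tgfbi: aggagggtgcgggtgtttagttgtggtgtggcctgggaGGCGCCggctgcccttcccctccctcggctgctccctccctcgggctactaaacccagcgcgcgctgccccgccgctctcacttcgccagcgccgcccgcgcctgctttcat
Grem1: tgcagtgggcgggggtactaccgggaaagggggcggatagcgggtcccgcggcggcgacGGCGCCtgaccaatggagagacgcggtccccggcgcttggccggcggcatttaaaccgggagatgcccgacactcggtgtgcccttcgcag
Tgfbi lies at chr17:7990114-7990263 and Inhba at chr17:53804509-53804658, both on the minus strand of chromosome 17. Tgfb1 lies at chr1:90324162-90324311 on the plus strand. On the minus strand lie Tgfb2 at chr13:100792686-100792835, Tgfb3 at chr6:111456947-111457096 and Grem1 at chr3:120978320-120978469. GGCGCC stood in 2 of the 6 windows, those of Tgfbi and Grem1, and in 11 of the 56 RefSeq promoter windows of members (19.6%), against 6.31% of all 33469 promoter windows of this length. CAGAC on either strand stood in 0 of the 6, in 10 of the 56 (17.9%) and in 27.8% of all windows. A match is a stretch of letters and no measure of binding, and 11 members had no window in the table.

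Stroke alone was addressed by Model vs. Sham, called the stroke comparison from here on. Of 48 members tested, 30 changed (62.5%), where 54% of all 12884 genes tested did. Among them 17 were higher and 13 lower in Model, against 27.3% and 26.6% of all genes. DEGs numbered 19 (39.6%), with 10 higher and 9 lower, against a background of 21.5% (9.43% higher and 12% lower). The median log2 fold change of the members was -0.08 and their median absolute log2 fold change 0.57, beside 0.01 and 0.48 over all genes. The 3 Model and 3 Sham libraries did not overlap at 34 of the 48 members, against 63.7% of all genes. At an unadjusted p under 0.05 there were 32 members, against 59.9% of all genes.

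Adding acupuncture to rt-PA was addressed by rt-PA+Acu vs. rt-PA, called the acupuncture comparison, which shares no library with the first. Here 26 of 51 members changed (51%), 10 higher and 16 lower, where 34.8% of all 12999 genes did (17% higher and 17.7% lower). DEGs numbered 16 (31.4%), 5 higher and 11 lower, against 15.3% of all genes (7.17% higher and 8.16% lower). The groups did not overlap at 33 members, against 51.1% of all genes. At an unadjusted p under 0.05 there were 36 members, against 46.2% of all genes. Of the members that changed with stroke, 20 also changed with added acupuncture (66.7%, beside 54% of all genes), and all 20 went the opposite way. This was no trait of the family, since 99.6% of the 3729 genes changed in both comparisons did the same. The plot by library shows the 24 DEGs.

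**Figure D1:**
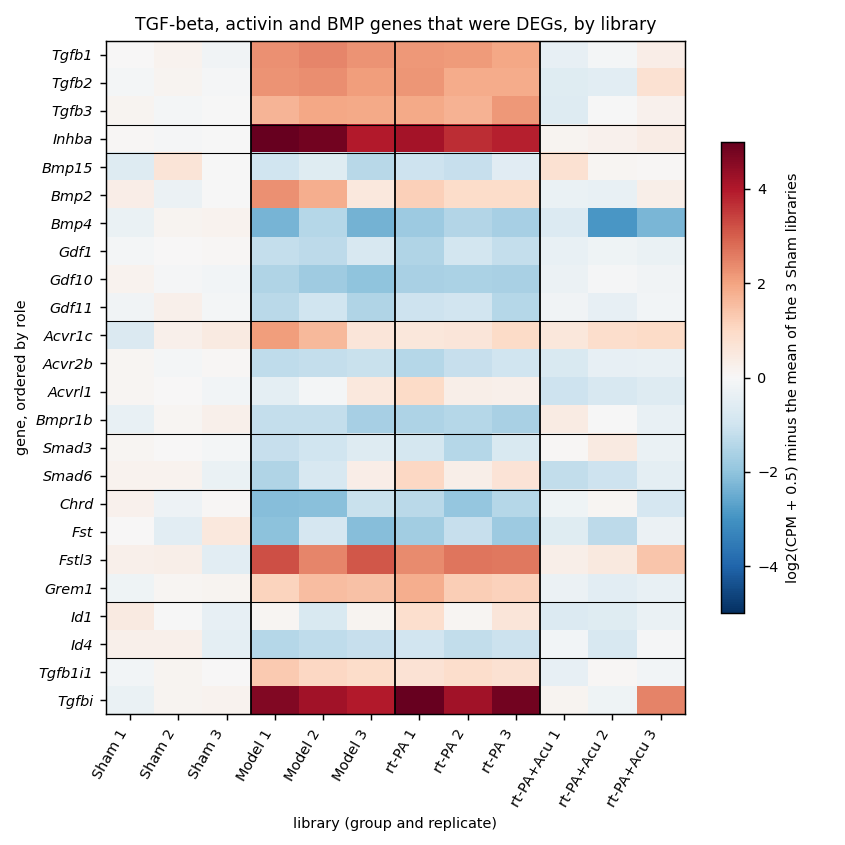
Level of the 24 members that were DEGs in at least 1 comparison (rows, grouped by role) in each of the 12 libraries (columns), as log2(CPM + 0.5) minus the mean of the 3 Sham libraries. Red is above and blue below Sham, with full colour from 5 upward. Inhba and Tgfbi are the darkest red in the Model and rt-PA columns. The deepest colours of the 3 rt-PA+Acu columns are those of Bmp4 in replicates 2 and 3 and Tgfbi in replicate 3.

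All 3 TGF-beta ligand genes rose with stroke and were lower with added acupuncture. Tgfb1, the isoform made chiefly by microglia and macrophages, stood at 8.65, 9.72 and 7.51 CPM in Sham, 44.1, 48.7 and 42.0 in Model, 39.9, 39.6 and 34.6 in rt-PA, and 6.4, 8.02 and 11.1 in rt-PA+Acu. The Model and rt-PA libraries all lay above the other 6. The gene was 5.23-fold higher in Model than in Sham (log2 fold change 2.39 ± 0.14 SE, edgeR adjusted p = 1.32e-05) and 4.46-fold lower with added acupuncture (-2.16 ± 0.21, edgeR adjusted p = 0.00118).

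Tgfb2, expressed by neurons and astrocytes, measured 58.7, 69.8 and 61.7 CPM in Sham, 297, 316 and 269 in Model, 297, 229 and 230 in rt-PA, and 41.3, 43.2 and 109 in rt-PA+Acu. In rt-PA+Acu, replicate 3 stood between the Sham and Model levels while the other 2 lay under Sham. Its log2 fold change was 2.22 ± 0.11 with stroke (edgeR adjusted p = 6.02e-06) and -1.96 ± 0.38 in the acupuncture comparison (edgeR adjusted p = 0.00803), or -2.57 without rt-PA+Acu replicate 3. Tgfb3 had 10.9, 9.26 and 9.78 CPM in Sham, 33.3, 39.7 and 38.2 in Model, 38.5, 34.8 and 46.3 in rt-PA, and 6.14, 9.76 and 11.8 in rt-PA+Acu, with log2 fold changes of 1.9 ± 0.13 (edgeR adjusted p = 2.74e-05) and -2.11 ± 0.25 (edgeR adjusted p = 0.00177). As for Tgfb1, both injured groups without acupuncture lay above all libraries of the other 2 groups.

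Among the activin and inhibin subunits, Inhba stood out. It encodes the beta A chain, 2 of which form activin A, and is known to rise in neurons after strong activity and injury. It stood at 4.36, 4.06 and 4.11 CPM in Sham, 198, 131 and 71.6 in Model, 82.3, 60.5 and 69.1 in rt-PA, and 4.63, 4.88 and 5.54 in rt-PA+Acu. This last group lay just above the Sham range and far under the lowest Model or rt-PA library. Inhba was 32.2-fold higher in Model than in Sham (log2 fold change 5.01 ± 0.39, edgeR adjusted p = 3.83e-05) and 14-fold lower with added acupuncture (-3.81 ± 0.17, edgeR adjusted p = 0.000303). When Model replicate 3 alone stood for Model, the log2 fold change was 4.10.

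The other subunits did not follow. Inha and Inhbb passed the test in none of the 4 comparisons with all libraries. Inhbb, the beta B chain, had 1.68, 3.55 and 8.01 CPM in the 3 Model libraries against 4.63 to 6.22 in Sham, so that Model replicate 3 lay above and the other 2 below Sham. Without that library its log2 fold change with stroke was -1.12 (edgeR adjusted p = 0.0299), and with it -0.36 (edgeR adjusted p = 0.551).

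**Figure D2:**
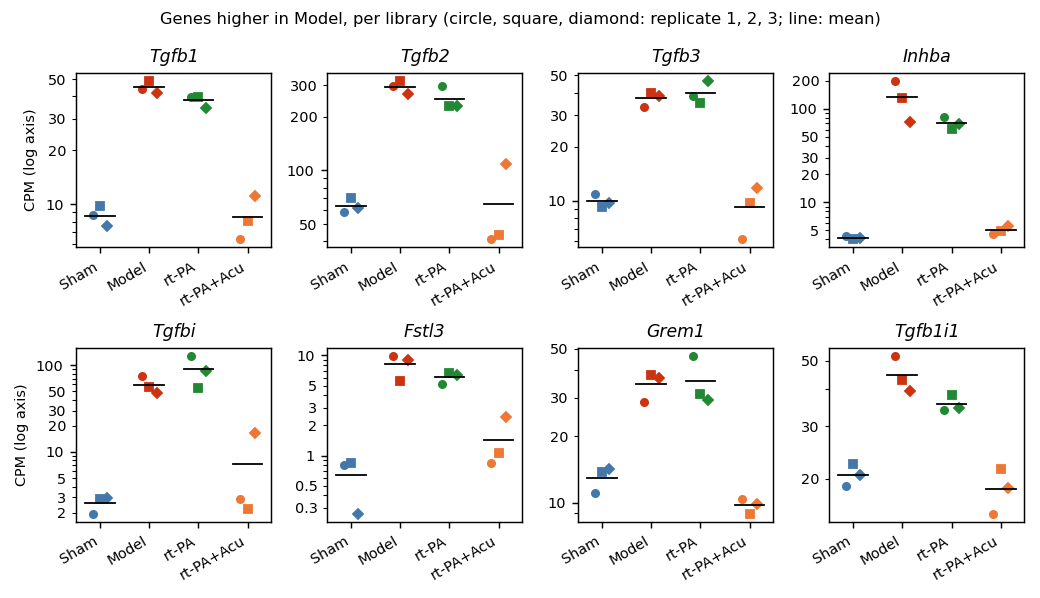
CPM (log axis) of 8 members that were higher in Model than in Sham, with 1 point per library by group and a line at each group's mean. In every panel the 3 Model and 3 rt-PA libraries lie above all Sham and rt-PA+Acu libraries, and for Tgfb2, Tgfbi and Fstl3 rt-PA+Acu replicate 3 (diamond) lies above the other 2 of its group.

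Tgfbi, a matrix protein named for its induction by TGF-beta, showed the second largest fold among the members. It went from 1.94, 2.91 and 2.97 CPM in Sham to 75.8, 55.6 and 47.6 in Model and 127, 54.9 and 86.3 in rt-PA, and stood at 2.86, 2.18 and 16.5 in rt-PA+Acu. Replicates 1 and 2 of rt-PA+Acu lay at the Sham level and replicate 3 did not. The log2 fold change was 4.52 ± 0.24 with stroke (edgeR adjusted p = 9.35e-06) and -3.61 ± 0.72 in the acupuncture comparison (edgeR adjusted p = 0.00921), or -5.13 without rt-PA+Acu replicate 3. Tgfb1i1 (Hic-5), a focal adhesion adaptor induced by TGF-beta, had 18.8, 22.3 and 20.5 CPM in Sham, 51.8, 42.9 and 39.5 in Model, 34.1, 38.2 and 34.7 in rt-PA, and 15.2, 21.5 and 18.6 in rt-PA+Acu, with changes of 1.13 ± 0.14 (edgeR adjusted p = 0.000291) and -0.95 ± 0.16 (edgeR adjusted p = 0.00499). Tgfbrap1, which binds TGF-beta receptors, and Bmp1, a protease that cleaves procollagen and chordin, changed by less: 0.36 ± 0.11 and 0.42 ± 0.09 with stroke (edgeR adjusted p = 0.0243 and 0.0059). The Tgfbrap1 call was lost without Sham replicate 2 (edgeR adjusted p = 0.0882) or 3 (0.0868). With added acupuncture Tgfbrap1 changed by -0.33 ± 0.1 (edgeR adjusted p = 0.0306), a call lost on leaving out any library except rt-PA+Acu replicate 3 (0.0651 to 0.0976).

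Genes of immune cells moved in the same libraries, though not all in 1 direction. Summed over 6 macrophage and monocyte markers, the level was 51.5 to 65.1 CPM in Sham, 107 to 162 in Model, 154 to 364 in rt-PA and 26 to 49.9 in rt-PA+Acu. Of the 5 such markers tested, 4 were higher in Model than in Sham and 4 lower with added acupuncture, with Ms4a7 at or near 0. Of all genes, 27.3% were higher in Model than in Sham and 17.7% lower with added acupuncture. Most microglial markers went the other way with stroke. The 6 of them summed to 467 to 575 CPM in Sham, 363 to 427 in Model, 362 to 414 in rt-PA and 362 to 422 in rt-PA+Acu, with Siglech at or near 0. All 5 tested changed with stroke, 4 of them lower, while 54% of all genes changed and 26.6% were lower. The lower markers included P2ry12 (12.5-fold, edgeR adjusted p = 4.31e-06) and Tmem119 (3.82-fold, edgeR adjusted p = 9.05e-06). With added acupuncture P2ry12 was 8.32-fold higher (edgeR adjusted p = 0.00133). The part of these cells in the ligand changes was not tested.

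Of the BMP and GDF ligands, 5 of the 8 tested changed with stroke (62.5%, against 54% of all genes), 4 of them lower. With added acupuncture 5 of 11 tested changed (45.5%, against 34.8%), 4 of them higher. Among the 4 was Bmp15, which passed the filter only through the rt-PA+Acu libraries. Gdf10, a TGF-beta family ligand reported in the recovery of cortex after stroke, fell from 4.12, 3.37 and 3.23 CPM in Sham to 0.916, 0.676 and 0.496 in Model, and stood at 0.832, 0.861 and 0.810 in rt-PA and 2.78, 3.40 and 3.07 in rt-PA+Acu. Model and rt-PA libraries held only 6 to 12 counts of it, yet all lay under the other 6 libraries. Its log2 fold change was -2.33 ± 0.36 with stroke (edgeR adjusted p = 0.000953) and 1.87 ± 0.31 in the acupuncture comparison (edgeR adjusted p = 0.00514).

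Gdf11, a close relative of myostatin, ran the same way at a higher count. It measured 54.2, 73.9 and 56.8 CPM in Sham, 24.0, 30.2 and 21.1 in Model, 29.9, 31.3 and 22.6 in rt-PA, and 54.5, 45.7 and 54.9 in rt-PA+Acu (-1.29 ± 0.17, edgeR adjusted p = 0.000418, and 0.89 ± 0.16, edgeR adjusted p = 0.00623). Gdf1 had 83.2, 89.2 and 91.3 CPM in Sham, 37.7, 35.4 and 49.7 in Model, 30.9, 45.8 and 38.6 in rt-PA, and 67.7, 76.3 and 69.4 in rt-PA+Acu (-1.09 ± 0.13, edgeR adjusted p = 0.000304, and 0.89 ± 0.15, edgeR adjusted p = 0.00602). In mammals Gdf1 shares a transcript with the ceramide synthase gene Cers1, so its counts cannot be assigned to the growth factor with certainty.

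Bmp4, a BMP ligand that acts on oligodendrocyte precursors and astrocytes, fell with stroke and did not follow the others after it. The values were 9.70, 13.7 and 14.2 CPM in Sham, 2.06, 4.31 and 1.98 in Model, 3.19, 4.16 and 3.54 in rt-PA, and 7.41, 1.22 and 2.17 in rt-PA+Acu. Replicate 1 of rt-PA+Acu lay between Sham and Model, and the other 2 lay under all rt-PA libraries. The log2 fold change was -2.16 ± 0.33 with stroke (edgeR adjusted p = 0.0009), -0.01 ± 0.60 in the acupuncture comparison (edgeR adjusted p = 0.987) and, for rt-PA+Acu vs. Sham, -1.80 ± 0.55 (edgeR adjusted p = 0.0993). Against Sham it passed without rt-PA+Acu replicate 1 (-2.86, edgeR adjusted p = 0.00917). Markers of the oligodendrocyte lineage spread in the same group, with summed levels of 17400, 7160 and 2700 CPM in rt-PA+Acu replicates 1, 2 and 3. In rt-PA replicates 1, 2 and 3 the sums were 2330, 9220 and 2800 CPM, and in Model replicates 1, 2 and 3 they were 1340, 3100 and 6880. Sham libraries had 9900 to 14500 CPM. All 5 markers fell with stroke, as 26.6% of all genes did. Their part in the Bmp4 levels was not tested.

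Bmp2 rose with stroke. Its values were 1.45, 0.765 and 1.05 CPM in Sham, 7.10, 5.07 and 1.73 in Model, 3.05, 2.44 and 2.43 in rt-PA, and 0.758, 0.697 and 1.42 in rt-PA+Acu. Model replicate 3, with 21 counts, lay near the Sham libraries, which held 10 to 18. The change with stroke was 2.10 ± 0.54 (edgeR adjusted p = 0.0113), and 0.67 when Model replicate 3 alone stood for Model (edgeR adjusted p = 0.435). In the acupuncture comparison it was -1.44 ± 0.39 (edgeR adjusted p = 0.0255), a call lost on leaving out any of 4 of the 6 libraries: rt-PA+Acu replicate 1 (edgeR adjusted p = 0.0835) or 2 (0.0903), or rt-PA replicate 1 (0.0884) or 3 (0.0638). Bmp15, best known from the oocyte, was near its detection limit with 4, 20 and 9 counts in Sham, 2, 4 and 0 in Model, 2, 1 and 5 in rt-PA, and 20, 10 and 11 in rt-PA+Acu (0.323, 1.53 and 0.786; 0.153, 0.338 and 0; 0.139, 0.0717 and 0.368; and 1.68, 0.872 and 0.823 CPM). The gene passed the filter only in the 2 comparisons with rt-PA+Acu, through the counts of that group. It was higher with added acupuncture by 2.49 ± 0.66 on the log2 scale (edgeR adjusted p = 0.0238). That call was lost without rt-PA+Acu replicate 1 (edgeR adjusted p = 0.0839) or 2 (0.054) and without rt-PA replicate 1 (0.0871) or 2 (0.0643).

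Bmp6 and Bmp7, picked here for the spread inside the rt-PA group after their values were seen, did not pass in any comparison, but passed in some of the alternatives tried. Bmp7 had 1.78, 4.67 and 3.14 CPM in Sham and 4.73, 10.9 and 5.2 in Model, with no overlap. Its log2 fold change with stroke was 1.12 ± 0.44 (edgeR adjusted p = 0.0581), and it passed in 6 of 14 alternatives, among them DESeq2 (adjusted p = 0.0356), the omission of Model replicate 3 (1.29, edgeR adjusted p = 0.0406) and the replicate block (edgeR adjusted p = 0.0118). Bmp7 had 21.5, 5.31 and 17.0 CPM in the rt-PA libraries, and Bmp6 29.5, 12.2 and 28.6, so that for both genes replicate 2 was the lowest. In the acupuncture comparison Bmp7 was at -1.37 ± 0.51 (edgeR adjusted p = 0.0724), and passed in 4 of 13 alternatives: without rt-PA replicate 2 (-1.77, edgeR adjusted p = 0.0119), by DESeq2 (adjusted p = 0.0196), in 1 fit over all 12 libraries (0.0496) and in the replicate block (0.0438). Bmp6 passed there without rt-PA replicate 2 (-1.05, edgeR adjusted p = 0.0397) and with stroke without Model replicate 2 (-0.76, edgeR adjusted p = 0.0276). The 5 fibroblast and meningeal markers summed to 185, 52.8 and 120 CPM in the same 3 libraries. The part of meningeal tissue in these levels was not tested. Gdf15, a stress-induced ligand that was also chosen after its values were seen, was counted 36, 40 and 13 times in the rt-PA libraries and 0, 0 and 12 times in rt-PA+Acu (-2.70 ± 1.03, edgeR adjusted p = 0.079, passing without rt-PA+Acu replicate 3 at 0.00822). Gdf15 passed the filter only in the 2 comparisons with the rt-PA group, through the counts of that group.

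**Figure D3:**
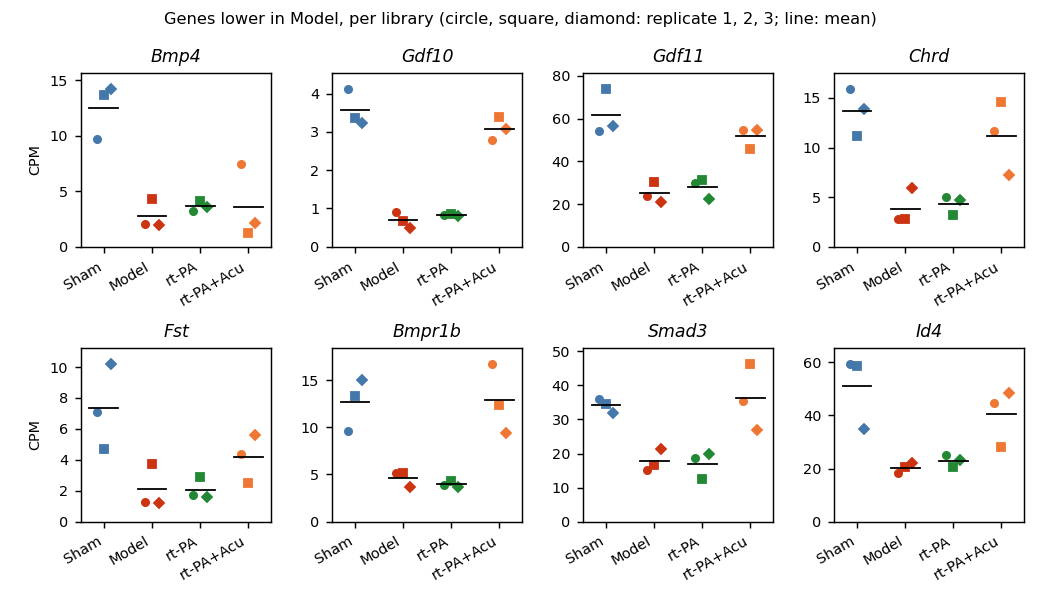
CPM (linear axis from 0) of 8 members that were lower in Model than in Sham, with 1 point per library and a line at each group's mean. Gdf10, Gdf11, Chrd, Bmpr1b, Smad3 and Id4 have all rt-PA+Acu libraries above the rt-PA libraries, while Bmp4 and Fst do not.

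All 12 receptor genes were tested, and 7 changed with stroke (3 higher, 4 lower) and 5 with added acupuncture (2 higher, 3 lower). These shares of 58.3% and 41.7% stand beside 54% and 34.8% of all genes. The receptors of the TGF-beta and activin branch went in both directions. Acvr1c (ALK7), a type I receptor for activin B and Nodal, had 3.96, 8.34 and 9.52 CPM in Sham, 31.0, 21.9 and 10.6 in Model, 10.3, 10.7 and 13.8 in rt-PA, and 10.3, 12.9 and 13.7 in rt-PA+Acu. Only Model replicates 1 and 2 stood clear of the other groups, and the change with stroke of 1.55 ± 0.43 (edgeR adjusted p = 0.015) was 0.55 when Model replicate 3 alone stood for Model (edgeR adjusted p = 0.365). Acvr2b, a type II activin receptor, had 5.58, 4.82 and 5.42 CPM in Sham, 1.91, 2.03 and 2.15 in Model, 1.66, 2.08 and 2.43 in rt-PA, and 2.86, 3.83 and 3.89 in rt-PA+Acu. The last group lay between the others without overlap. Acvr2b fell by 1.36 ± 0.25 on the log2 scale with stroke (edgeR adjusted p = 0.00221), while its value of 0.78 ± 0.30 in the acupuncture comparison did not pass (edgeR adjusted p = 0.0801).

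The BMP type I receptors Bmpr1a (ALK3) and Bmpr1b (ALK6) were both lower with stroke and higher with added acupuncture. Bmpr1b measured 9.62, 13.3 and 15.0 CPM in Sham, 5.19, 5.16 and 3.63 in Model, 3.88, 4.30 and 3.68 in rt-PA, and 16.7, 12.4 and 9.43 in rt-PA+Acu. All rt-PA+Acu libraries lay above all Model and rt-PA libraries. Its changes were -1.43 ± 0.24 (edgeR adjusted p = 0.00153) and 1.69 ± 0.25 (edgeR adjusted p = 0.00369), and those of Bmpr1a were -0.55 ± 0.14 (edgeR adjusted p = 0.0121) and 0.63 ± 0.15 (edgeR adjusted p = 0.0165). Of the remaining BMP receptors, Bmpr2 changed by -0.39 ± 0.13 (edgeR adjusted p = 0.0343) and Acvr1 (ALK2) by 0.45 ± 0.13 (edgeR adjusted p = 0.019) with stroke. Neither passed in the acupuncture comparison. With stroke, the Bmpr2 call was lost without Model replicate 2 (edgeR adjusted p = 0.0633) or any 1 Sham library (0.0659 to 0.0811), and the Acvr1 call without Sham replicate 1 (0.058) or 3 (0.0701). The Bmpr1a call with added acupuncture was lost without rt-PA+Acu replicate 1 (edgeR adjusted p = 0.0549) or rt-PA replicate 1 (0.0617).

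Of the members that fell in the acupuncture comparison, 4 did not pass with stroke: Acvrl1, Tgfbr2, Smad6 and Id1. Acvrl1 (ALK1) is the type I receptor of endothelium for BMP9 and BMP10, and SMAD6 and ID1 are among the targets of that signal. Acvrl1 had 20.7, 19.4 and 17.5 CPM in Sham, 13.5, 17.8 and 27.6 in Model, 37.3, 23.4 and 23.0 in rt-PA, and 9.01, 10.7 and 12 in rt-PA+Acu. All 3 rt-PA+Acu libraries lay under every other library. It was 2.64-fold lower with added acupuncture (-1.40 ± 0.23, edgeR adjusted p = 0.00519), and with stroke its log2 fold change was 0.04 ± 0.24 (edgeR adjusted p = 0.896).

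Smad6, an inhibitory SMAD, measured 3.15, 3.06 and 2.01 CPM in Sham, 0.610, 1.35 and 3.55 in Model, 6.10, 3.37 and 4.64 in rt-PA, and 0.842, 1.05 and 1.80 in rt-PA+Acu. It was 3.78-fold lower with added acupuncture (-1.92 ± 0.40, edgeR adjusted p = 0.0103). In Model its libraries spread from under to above the Sham range. The value with stroke of -0.58 ± 0.57 (edgeR adjusted p = 0.416) became -1.48 without Model replicate 3 (edgeR adjusted p = 0.0274). Id1 had 25.9, 18.9 and 14.2 CPM in Sham, 20.3, 10.9 and 20.7 in Model, 34.4, 20.3 and 28.9 in rt-PA, and 11.8, 12.4 and 14.9 in rt-PA+Acu, with a change of -1.10 ± 0.22 in the acupuncture comparison (edgeR adjusted p = 0.00905). Tgfbr2, the type II TGF-beta receptor, changed there by -0.91 ± 0.16 (edgeR adjusted p = 0.00597), and Tgfbr3 (betaglycan), which had been higher in Model than in Sham by 0.45 ± 0.14 (edgeR adjusted p = 0.0275), by -0.79 ± 0.12 (edgeR adjusted p = 0.00414). The Tgfbr3 call with stroke was lost without Model replicate 2 (edgeR adjusted p = 0.0871) or Sham replicate 1 (0.0854) or 3 (0.0502).

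Endothelial markers were lower along with these genes in the acupuncture comparison. The 6 markers analysed (Pecam1, Cdh5, Kdr, Tie1, Esam and Tek) summed to 160 to 204 CPM in Sham, 221 to 433 in Model with replicate 3 the highest, 295 to 426 in rt-PA and 101 to 112 in rt-PA+Acu. All 6 were lower with added acupuncture and 4 lower than in Sham, against 17.7% and 3.4% of all genes, with none at 0. Eng (endoglin), the endothelial co-receptor that works with ALK1, had 33.9, 48.0 and 33.5 CPM in Sham, 43.7, 62.4 and 71.6 in Model, 161, 105 and 80.1 in rt-PA, and 15.2, 21.4 and 27.4 in rt-PA+Acu. It was 5.39-fold lower with added acupuncture (-2.43 ± 0.31, edgeR adjusted p = 0.00212). The part of endothelial RNA as a whole in these changes was not tested.

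**Figure D4:**
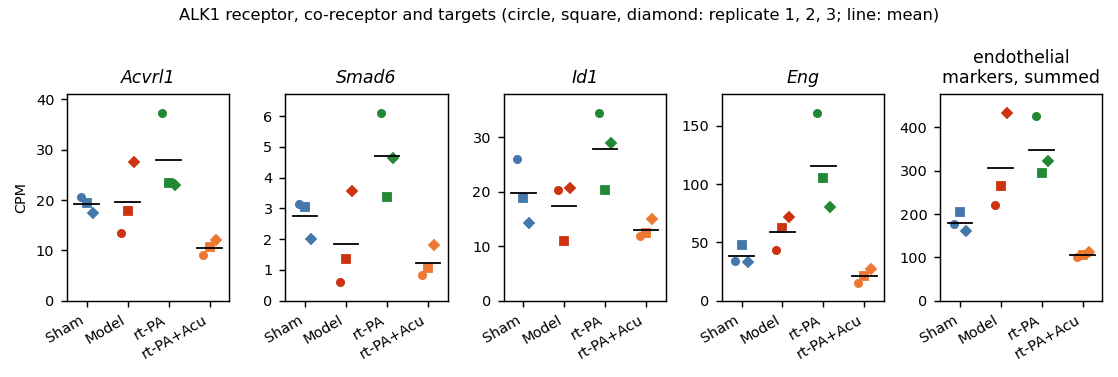
CPM (linear axis from 0) of Acvrl1, Smad6, Id1 and Eng and of 6 endothelial markers summed, with 1 point per library and a line at each group's mean. In all 5 panels the rt-PA+Acu mean is the lowest and the rt-PA mean the highest of the 4 groups, and in the marker panel the 3 rt-PA+Acu libraries lie between 101 and 112 CPM, under all the others.

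Of the 8 SMADs, 4 changed with stroke, all by less than 2-fold, and 4 with added acupuncture (2 higher, 2 lower), or 50% in each, against 54% and 34.8% of all genes. Smad3 fell and Smad2 rose, although both carry TGF-beta and activin signals. Smad3 had 36.1, 34.4 and 32.0 CPM in Sham, 15.3, 16.7 and 21.4 in Model, 18.6, 12.5 and 19.8 in rt-PA, and 35.3, 46.3 and 26.9 in rt-PA+Acu. The Model and rt-PA libraries lay under all of the others. Its changes were -0.93 ± 0.15 with stroke (edgeR adjusted p = 0.00106) and 1.09 ± 0.25 in the acupuncture comparison (edgeR adjusted p = 0.0141, and 0.0511 without rt-PA+Acu replicate 2).

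Smad2 changed by 0.50 ± 0.14 (edgeR adjusted p = 0.0166), Smad4 by 0.36 ± 0.10 (edgeR adjusted p = 0.0126) and Smad1 by 0.94 ± 0.10 (edgeR adjusted p = 0.000132) with stroke. Smad1, of the BMP branch, was at 29.1 to 30.0 CPM in Sham and 52.5 to 59.8 in Model, with no overlap. In the acupuncture comparison Smad4 changed by -0.46 ± 0.11 (edgeR adjusted p = 0.0179) and Smad9 by 0.73 ± 0.21 (edgeR adjusted p = 0.0303). With stroke, the Smad2 call was lost without Model replicate 2 (edgeR adjusted p = 0.0569) or Sham replicate 2 (0.0654) or 3 (0.0653), and the Smad4 call without Sham replicate 1 (0.0527). With added acupuncture, the Smad4 call was lost without rt-PA+Acu replicate 1 (edgeR adjusted p = 0.0547) or rt-PA replicate 1 (0.0632), and the Smad9 call without rt-PA+Acu replicate 2 (0.0981) or 3 (0.0617) or rt-PA replicate 1 (0.0904) or 3 (0.0735). Smad1 was at -0.59 ± 0.23 there (edgeR adjusted p = 0.0794), and at -0.90 without rt-PA+Acu replicate 3 (edgeR adjusted p = 0.00357), whose 51.3 CPM lay apart from the 26.9 and 32.9 of the other 2 libraries. Without rt-PA+Acu replicate 3, Smad2 and Smad5 passed there as well, both at -0.41 (edgeR adjusted p = 0.0485 and 0.0338). Smad5 and Smad7 passed in no comparison with all libraries, and Smad7 passed with stroke without Model replicate 3 (-0.57, edgeR adjusted p = 0.00431) and in the replicate block (-0.4, edgeR adjusted p = 0.0445).

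Id genes are the standard readout of BMP signalling in transcript data. Id4 stood at 59.4, 58.8 and 34.9 CPM in Sham, 18.2, 20.5 and 22.0 in Model, 25.1, 20.7 and 23.2 in rt-PA, and 44.6, 28.3 and 48.3 in rt-PA+Acu. The Model and rt-PA libraries lay under all Sham and rt-PA+Acu libraries. It fell by 1.33 ± 0.21 on the log2 scale with stroke (edgeR adjusted p = 0.000941) and was higher by 0.81 ± 0.21 with added acupuncture (edgeR adjusted p = 0.0215). The latter call was lost without rt-PA+Acu replicate 1 (0.0676) or rt-PA replicate 1 (0.0509), 2 (0.0602) or 3 (0.0641), all edgeR adjusted p. Id3 changed by -0.71 ± 0.17 with stroke (edgeR adjusted p = 0.00828). Id2 passed in none of the comparisons by edgeR with all libraries, though with added acupuncture it passed by DESeq2 (0.68, adjusted p = 0.0216), and Id1 only where it is described above.

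The extracellular inhibitors split. Fstl3 and Grem1 rose with stroke, and Fst and Chrd fell. Fstl3, which binds activin, had 0.808, 0.842 and 0.262 CPM in Sham, 9.84, 5.58 and 8.92 in Model, 5.20, 6.60 and 6.41 in rt-PA, and 0.842, 1.05 and 2.40 in rt-PA+Acu, so that only rt-PA+Acu replicate 3 lay clearly above Sham. It was 12.5-fold higher in Model than in Sham (3.64 ± 0.42, edgeR adjusted p = 0.00024) and changed by -2.06 ± 0.41 in the acupuncture comparison (edgeR adjusted p = 0.00905). Fst (follistatin), the other activin binder, had 7.11, 4.67 and 10.2 CPM in Sham, 1.30, 3.72 and 1.24 in Model, 1.73, 2.87 and 1.62 in rt-PA, and 4.38, 2.53 and 5.61 in rt-PA+Acu. Its change with stroke was -1.81 ± 0.48 (edgeR adjusted p = 0.0128, and 0.0539 without Sham replicate 3), and in the acupuncture comparison, where the groups overlapped, 1.01 ± 0.40 (edgeR adjusted p = 0.0844).

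Grem1 (gremlin 1) binds BMP2 and BMP4. Its values were 11.0, 13.8 and 14.2 CPM in Sham, 28.8, 38.1 and 37.0 in Model, 46.4, 31.1 and 29.3 in rt-PA, and 10.4, 8.89 and 9.88 in rt-PA+Acu. This last group lay just under Sham. Its changes were 1.42 ± 0.16 (edgeR adjusted p = 0.000216) and -1.87 ± 0.21 (edgeR adjusted p = 0.00153). Chrd (chordin) ran the other way, with 15.9, 11.2 and 13.9 CPM in Sham, 2.75, 2.79 and 5.95 in Model, 4.99, 3.16 and 4.71 in rt-PA, and 11.7, 14.6 and 7.26 in rt-PA+Acu. It fell by 1.83 ± 0.32 on the log2 scale with stroke (edgeR adjusted p = 0.00181) and was higher by 1.38 ± 0.31 with added acupuncture (edgeR adjusted p = 0.0141, and 0.0552 without rt-PA+Acu replicate 2). Nog (noggin) passed in no comparison with all libraries, and with stroke it passed without Model replicate 1 (-0.88, edgeR adjusted p = 0.00998).

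**Figure D5:**
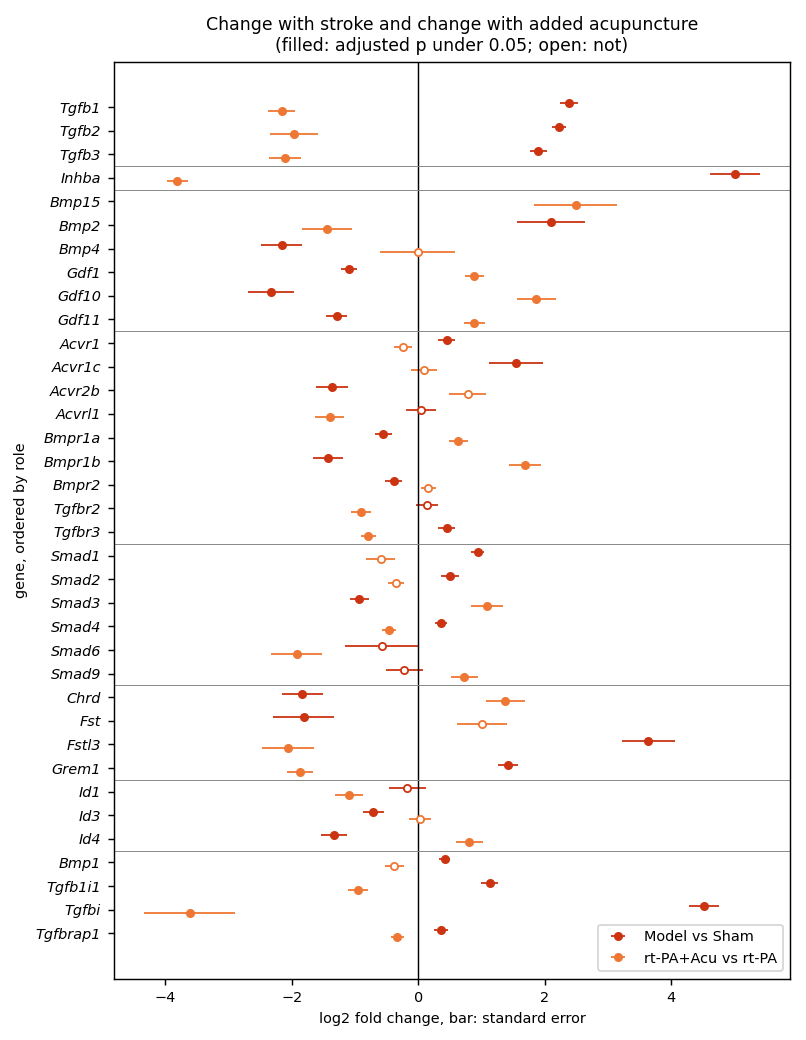
Log2 fold changes with their standard errors (x axis) of the 36 members that changed in at least 1 comparison (y axis, grouped by role), with stroke (red) and in the acupuncture comparison (orange), with filled points at an adjusted p under 0.05. For 20 genes both points are filled and lie on opposite sides of 0. Acvrl1, Tgfbr2, Smad6 and Id1 are filled in the acupuncture comparison only, on the negative side.

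Late rt-PA without acupuncture was addressed by rt-PA vs. Model. None of 50 members tested changed, and 0% of all 12941 genes did by edgeR, while DESeq2 called 204 genes. At an unadjusted p under 0.05 there were 7 members, beside 9.92% of all genes, and the groups did not overlap at 5, beside 16% of all genes. Id3 had the smallest adjusted p of the members (0.296 by edgeR), with 19.5, 22.5 and 22.1 CPM in Model and 44.4, 29.1 and 41.5 in rt-PA, a log2 fold change of 0.85 ± 0.18. DESeq2 called this 1 member and no other (adjusted p = 0.00681).

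How near the acupuncture group lay to Sham was addressed by rt-PA+Acu vs. Sham. Of 49 members tested 1 changed and 0 were DEGs, beside 5.1% and 2.06% of all 12775 genes. The 1 member was Acvrl1, lower in rt-PA+Acu (-0.86 ± 0.16, edgeR adjusted p = 0.0268), as 3.4% of all genes were, while 1.7% were higher. DEGs were higher in 0.916% and lower in 1.14% of all genes. The Acvrl1 call was lost in 6 of the 13 alternatives, among them the omission of rt-PA+Acu replicate 2 (edgeR adjusted p = 0.0748) or of any Sham library (0.0703 to 0.124). At an unadjusted p under 0.05 there were 13 members, against 23.2% of all genes, and the groups did not overlap at 12, against 30.7%. Values close to Sham in this comparison were those of Tgfb1 (-0.02 ± 0.24), Tgfb3 (-0.11 ± 0.25), Smad3 (0.08 ± 0.19) and Bmpr1b (0.02 ± 0.25), each past no threshold, which does not show that they were equal. Farther from Sham by value, and past no threshold either, were Bmp4 (-1.80 ± 0.55), Tgfbi (1.47 ± 0.73), Fstl3 (1.15 ± 0.59) and Smad6 (-1.14 ± 0.4).

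The 3 rt-PA+Acu libraries were not alike in this. Of the 30 members that changed with stroke, replicates 1 and 2 each had 13 within the range of the 3 Sham libraries, and replicate 3 had 7. On the Model side of that range lay 9, 10 and 17 members (30%, 33.3% and 56.7%). Over all 6951 genes that changed with stroke, the shares within the Sham range were 31.5%, 28.1% and 16.4%, and those on the Model side 45.8%, 50.5% and 73.5%. Tgfb2 shows the effect of the third library: in rt-PA+Acu vs. Sham its log2 fold change was 0.03 with it and -0.59 without it (edgeR adjusted p = 0.0224).

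Other genes of the pathway were followed in 4 lists. Of 11 genes tested for latency and activation of TGF-beta, 6 changed with stroke, 4 higher and 2 lower (54.5%, against 54% of all genes). Thbs1 (thrombospondin 1), which activates latent TGF-beta, stood at 1.62, 4.21 and 3.32 CPM in Sham, 100, 116 and 99.6 in Model, 100, 69.1 and 103 in rt-PA, and 1.43, 5.23 and 7.19 in rt-PA+Acu. It was 34.6-fold higher in Model than in Sham (5.11 ± 0.25, edgeR adjusted p = 7.04e-06) and 19.5-fold lower with added acupuncture (edgeR adjusted p = 0.00143). Ltbp1, which tethers latent TGF-beta to the matrix, was 9.95-fold higher and then 7.59-fold lower. Fbn1 (fibrillin 1), to which that complex attaches, was 3.23-fold higher and 5.58-fold lower. In the acupuncture comparison, 6 of the 11 changed, 5 of them lower (54.5%, against 34.8%), including Furin, the protease that cleaves the TGF-beta precursor (-1.04 ± 0.21, edgeR adjusted p = 0.00952).

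Among well-known SMAD target genes, 6 of 13 tested changed with stroke (2 higher, 4 lower) and 8 of 14 in the acupuncture comparison (1 higher, 7 lower). These shares were 46.2% and 57.1%, against 54% and 34.8% of all genes. The list did not move as 1 block. Cdkn1a (p21), a cell cycle inhibitor, was 4-fold higher with stroke and 5.1-fold lower with added acupuncture. Ccn2 (CTGF), a matrix signalling protein, went from 76.6, 53.0 and 50.7 CPM in Sham to 11.0, 18.0 and 19.2 in Model, with 66.3, 39.1 and 55.8 in rt-PA and 26.4, 26.4 and 19.4 in rt-PA+Acu. It was lower in Model than in Sham (-1.9 ± 0.24, edgeR adjusted p = 0.000334), lower with added acupuncture (-1.16 ± 0.22, edgeR adjusted p = 0.00756) and lower in rt-PA+Acu than in Sham (-1.32 ± 0.19, edgeR adjusted p = 0.011). Acta2, the actin of smooth muscle, was 3.39-fold lower in rt-PA+Acu than in Sham (edgeR adjusted p = 0.00646). Acta2 is also 1 of 5 pericyte and smooth muscle markers, of which 4 were lower there, against 3.4% of all genes.

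Of 12 further extracellular modulators tested, 5 changed with stroke (3 higher, 2 lower) and 8 in the acupuncture comparison (3 higher, 5 lower), or 41.7% and 66.7%, against 54% and 34.8% of all genes. Bgn (biglycan), a proteoglycan that binds TGF-beta, and Bmper, which binds BMPs on endothelium, were higher with stroke (2.79- and 2.28-fold) and lower with added acupuncture (2.88- and 2.36-fold). Rgma, a BMP co-receptor of neurons, went the other way, 2.42-fold lower and then 2.39-fold higher. Of 14 co-receptors and intracellular regulators, 8 changed with stroke (7 higher) and 5, all lower, in the acupuncture comparison, or 57.1% and 35.7%, near the 54% and 34.8% of all genes. Beside Eng these included Pmepa1, a feedback inhibitor induced by TGF-beta (1.47 ± 0.16, edgeR adjusted p = 0.00016, and -1.56 ± 0.34, edgeR adjusted p = 0.0122), and the repressor Tgif1 (2.07 ± 0.29, edgeR adjusted p = 0.000623, and -1.51 ± 0.31, edgeR adjusted p = 0.0102).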

How the data were processed

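The deposited table holds raw whole-number counts per gene symbol for 12 libraries. Per the methods and the submitters' processing notes, poly(A) RNA with an RNA integrity number over 7 was made into strand-marked paired-end libraries with molecular identifiers, aligned to mRatBN7.2 with STAR 2.7.10a (2.7.10 in the methods) and counted with Salmon 1.9.0. The notes also name featureCounts 2.0.1. The strand setting and the use of the identifiers are not given in the sources used here, so reads may not be independent molecules and floors cover counting error only.

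Counts were fitted in R 4.3.3 with edgeR 4.0.16 (TMM, filterByExpr, glmQLFit and glmQLFTest) on the 6 libraries of each comparison, with Benjamini-Hochberg adjustment over all genes tested. The standard error is the log2 fold change divided by the root of F. The alternatives were DESeq2 1.42.0, other scaling and filters, 1 fit over all 12 libraries, a replicate block, Model replicate 3 as the only Model library, and each library left out. The fits were tested on simulated data, where 6 to 8 false calls were made. Of 2-fold changes, 77.8% (Model vs. Sham), 56.2% (rt-PA vs. Model), 61.6% (rt-PA+Acu vs. rt-PA) and 69.7% (rt-PA+Acu vs. Sham) were recovered. In each simulation few genes were changed and genes varied independently, while 54% of all genes changed in the real Model vs. Sham. These figures therefore do not give the power or error of the real comparisons. Plots used Python 3.11.15 and matplotlib 3.10.9.

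The members, lists, markers and tests were chosen with earlier results of these data known. Members that changed in a comparison are named, all libraries are given for those that were DEGs, and at most 5 DEGs are named from each pathway list. The pathway lists share Dcn and Col1a1 with the fibroblast markers and Acta2 with the smooth muscle markers. The rats are separate animals, and no batch is given in the sources used here. A few other genes of these lists are not reported here.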

Additional observations from a re-analysis of the deposited data

How the results depend on the processing

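In every alternative that tested them, 20 of the 30 members called in the stroke comparison (Model vs. Sham) and 17 of the 26 called in the acupuncture comparison (rt-PA+Acu vs. rt-PA) passed the threshold, with directions kept by all members called. Of the 20, Fstl3 and Gdf10 were tested in 13 of the 14 stroke alternatives. They did not pass the filter of at least 10 counts in every library. How many of all genes passed in every alternative was not counted. Leaving out 1 library gave 24 (without Sham replicate 3) to 34 (without Model replicate 3) changed members and 18 to 23 DEGs with stroke. In those 2 fits 45.3% and 57.6% of all genes changed. For rt-PA vs. Model it gave 0 to 0. With added acupuncture it gave 19 (without rt-PA replicate 1) to 29 (without rt-PA+Acu replicate 3) changed members and 13 to 17 DEGs. There 20.5% and 41.1% of all genes changed. For rt-PA+Acu vs. Sham it gave 0 to 2 changed members and 0 to 1 DEGs. When Model replicate 3 alone stood for Model, assumed to vary like the Sham libraries, 25 members changed. DESeq2 called 1 member (Id3) for rt-PA vs. Model, and 2 members and 1 DEG for rt-PA+Acu vs. Sham, the added one being Bmp4 (adjusted p = 0.0109). The fit over 12 libraries and the replicate block called 0 there. The cause of these shifts was not tested. Over all genes, rt-PA+Acu vs. Sham gave 651 calls by edgeR, 1386 by DESeq2, 289 with the block and 112 to 856 without 1 library, Model vs. Sham 6951, and rt-PA vs. Model 0 by edgeR and 204 by DESeq2. In the acupuncture comparison the 4522 calls fell to 2694 without rt-PA replicate 1, 2850 and 2496 without rt-PA+Acu replicates 1 and 2, and 2958 without rt-PA replicate 3. Tgfb2 in rt-PA+Acu vs. Sham turned from 0.03 to -0.59 without rt-PA+Acu replicate 3 (-0.59 to 0.27 over the omissions of 1 library). Other sign flips were of values that passed in neither fit, whose direction was not read.

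Scaling by library size alone moved the median of all genes in the acupuncture comparison by -0.1 and left 25 members called, beside 33.9% of all genes. With the replicate number as a block, 32 members changed with stroke, 25 with added acupuncture and 0 in each of the other 2 comparisons. Of all genes, 52.2% changed with stroke, 28.4% with added acupuncture, 0% for rt-PA vs. Model and 2.26% for rt-PA+Acu vs. Sham. In this block Bmp2 (adjusted p = 0.0509) and Tgfbrap1 (0.0759) were lost with added acupuncture and Bmp7 gained (0.0438), and with stroke Bmp7 (0.0118) and Smad7 (0.0445) were gained. Same-numbered libraries of Model and Sham deviated together only weakly (r = 0.111, 0.071 and 0.051 over 13298 genes), and in the other comparisons not all such r were positive, so the numbers are not read as pairs.

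Depth limited the 11 untested members, which had at most 13 counts in any library, and Bmp15, which had at most 20.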
